A study of Mus musculus with 9 samples.

Results

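The 67 genes described here encode the translation factors and aminoacyl-tRNA synthetases measured in AML12 cells, a mouse hepatocyte line. They were taken by gene symbol from the count table of fatty acid-treated and control cells, which lists 6213 genes: 42 initiation factor symbols (Eif1 to Eif6), 6 elongation factor symbols (Eef1 and Eef2) and 19 synthetase symbols. The rule uses symbols and no measured value, although the class was picked with results of these data known. All 67 were also listed in the tables of the other pairs of groups and passed the filter on low counts in all 3 tables. The symbol rule also takes in genes that act beside translation factors: the eIF2 kinases Eif2ak1 and Eif2ak2, the 4E-binding proteins Eif4ebp1 and Eif4ebp3, the exon junction helicase Eif4a3, the multisynthetase complex protein Eef1e1, the methyltransferase Eef2kmt and Eif1ad. Of the 19 synthetases, 6 serve mitochondria (Ears2, Iars2, Mars2, Nars2, Tars2 and Yars2).

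The study held 3 groups of 3 samples. Cells of the Ang(1-7) group were given the angiotensin fragment Ang(1-7) at 100 nM for 30 min, and then PA at 0.2 mM with OA at 0.4 mM over 24 h. PA and OA are taken to mean palmitic and oleic acid. The PA/OA group received the same fatty acids without the peptide, and control cells received none of these. No group given a carrier alone is among the samples. AML12 is a single line, derived from hepatocytes of a mouse with a human TGF-alpha transgene, and nothing in the labels says that replicates were cultured separately. P-values therefore refer to the spread between the samples at hand, which may be technical.

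Initiation factors load the small ribosomal subunit with the initiator tRNA (eIF2), bind it to the mRNA through a multisubunit scaffold (eIF3) and recruit the mRNA by its cap and unwind its leader (eIF4E, eIF4G and eIF4A). Elongation factors bring each charged tRNA to the ribosome and move the ribosome along the mRNA, and synthetases charge the tRNAs. Brakes also act on initiation: kinases that phosphorylate eIF2 under stress, and 4E-binding proteins that hold the cap-binding protein. Several of these genes are known targets of the stress factor ATF4, and many factor mRNAs are regulated through their own translation, which RNA levels do not show.

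Libraries held 24588312 to 28704499 listed counts. Of 15 hepatocyte markers 8 or 9 were listed, with 21104 to 23966 CPM in sum in every library. CPM are counts divided by the scaled total of their library and brought to a common size. Sums of marker genes, hemoglobin included, use the listed total without that scaling. Single markers among them differed between groups, as given below. Ang(1-7) 2 stood apart: its counts differed from those of Ang(1-7) 1 and 3 by 162 to 250 on a scale (chi-square over its degrees of freedom) on which counting noise alone gives values near 1, against 15.8 to 34.0 for other pairs within a group. Of 35 nervous tissue markers, 20 were listed for Ang(1-7) and PA/OA, 7 for Ang(1-7) and control and 1 for PA/OA and control. All 20 had counts above 0 in Ang(1-7) 2 and 3 (276 and 230 CPM in sum). In Ang(1-7) 1 and the PA/OA libraries 6 or 7 did (129 to 140 CPM), and Nefl, Nefm, Nefh, Tubb3 and Mog were at 0. Such genes were listed only through counts in Ang(1-7) 2 or 3, so the number above 0 was partly fixed by the listing. Listed hemoglobin genes came to 4.01 CPM in Ang(1-7) 2, 2.44 CPM in Ang(1-7) 3 and at most 0.159 CPM in Ang(1-7) 1 and the PA/OA libraries. None was listed for the pairs with control cells. Results with the Ang(1-7) group are therefore given with all libraries, and the counts of calls and most fold changes also without Ang(1-7) 2. The part of the nervous tissue transcripts in these results was not tested.

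The first comparison asks what the fatty acids did to this machinery. Eif2ak2, the double-stranded RNA-activated eIF2 kinase PKR, rose in PA/OA cells, and Eif4a1, the main helicase of the cap-binding complex, fell. They were the only members called at an adjusted p under 0.05 by edgeR, 2 of 67 (2.99%), where 5.05% of all 6213 genes were called, 2.82% higher and 2.24% lower in PA/OA cells. DESeq2 called 6 of 67, where it called 8.58% of all genes. With 1 library left out, edgeR called 8 members without PA/OA 1, 1 member without PA/OA 2, PA/OA 3 or control 1, and 2 members without control 2 or control 3. Most other members were slightly lower in PA/OA cells without passing the test: 48 of 67 had a log2 fold change below 0, against 48% of all genes, and the median was -0.10, against 0.01. The medians by role were -0.09 for initiation, -0.06 for elongation and -0.13 for synthetases. With 1 library left out they shrank to -0.060 for initiation (without control 2), -0.034 for elongation (without PA/OA 2) and -0.080 for synthetases (without control 3). In bulk RNA, a lower share of counts cannot be told apart from a change in the rest of the RNA of the cell. Cell type markers differed between the same groups. Of the 8 listed hepatocyte markers, edgeR called Apob and Trf higher (log2 1.00 and 0.41) and Ttr lower (-1.79) in PA/OA cells. Alb, Hnf4a, Krt8 and Krt18 stood at -0.71, -0.57, -0.07 and -0.09 and Rbp4 at 0.07, none called. The 4 listed cholangiocyte markers (of 6) summed to 1711, 1594 and 1568 CPM in PA/OA cells, against 2135, 1993 and 2030 CPM in control cells. Krt7 and Krt19 among them were called lower by edgeR (log2 -0.27 and -0.56). Sox9 and Spp1, the others, went the other way (0.56 and 0.96) and were not called. The 3 listed macrophage markers (of 8) summed to 816, 694 and 674 CPM in PA/OA cells, against 626, 608 and 587 CPM in control cells, and 0 of them were called. Cd14 and Cd68 stood at log2 0.22 and 0.65, and Lyz2 at -0.15. The part of these marker differences in the members' values was not tested.

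Eif2ak2 had 92.1, 90.5 and 94.2 CPM in PA/OA cells, against 58.4, 69.7 and 66.5 CPM in control cells. Every PA/OA library lay above every control library, and the PA/OA values were within 4 CPM of each other. The log2 fold change was 0.51 ± 0.11 (SE), a fold of 1.42 (edgeR adjusted p = 0.011). The call was lost without PA/OA 3 (log2 0.49, adjusted p = 0.056), without control 1 (log2 0.44, adjusted p = 0.076) and when all 9 samples shared one fit (adjusted p = 0.22), and the direction held in each. Just after its annotated start the gene holds a copy of the interferon-stimulated response element, 2 copies of GAAA with any 2 bases between them, in capitals in bases 1 to 30 (RefSeq, GRCm38.p6, chr17:78882543-78882572, minus strand, written 5′ to 3′ along the gene).
Eif2ak2: gaaggcggagtccgccggGAAAACGAAAca

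Of the 67 members, 51 had a promoter in the RefSeq table, from 250 bases before to 50 bases after the start, and 5 of these held that element on either strand (9.8%), against 3.94% of 17492 protein-coding genes. The others were Eif2s1, Eif2s3x, Eif3a and Qars, none of which was called. A match of letters describes the sequence only. The protein-coding genes compared here and below include genes not listed in these cells, and shares among listed genes alone were not computed. Eif2ak1, the heme-regulated eIF2 kinase, stood at 15.1 CPM in PA/OA cells and 14.7 CPM in control cells (log2 0.04 ± 0.23, edgeR adjusted p = 0.96).

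Eif4a1 had 479, 474 and 504 CPM in PA/OA cells, against 621, 564 and 568 CPM in control cells. The groups did not overlap, and control 1 was the highest of the 6 libraries. The log2 fold change was -0.27 ± 0.07, a fold of 0.831 (edgeR adjusted p = 0.023). The call was lost without control 1 (log2 -0.22, adjusted p = 0.14), without PA/OA 2 (log2 -0.25, adjusted p = 0.091) and with all 9 samples in one fit (adjusted p = 0.52). Upstream of Eif4a1 lies an E-box CACGTG, the palindrome bound by MYC and related factors, shown in capitals in the 240 bases before the start (RefSeq, GRCm38.p6, chr11:69672424-69672663, minus strand, 5′ to 3′ along the gene).
Eif4a1: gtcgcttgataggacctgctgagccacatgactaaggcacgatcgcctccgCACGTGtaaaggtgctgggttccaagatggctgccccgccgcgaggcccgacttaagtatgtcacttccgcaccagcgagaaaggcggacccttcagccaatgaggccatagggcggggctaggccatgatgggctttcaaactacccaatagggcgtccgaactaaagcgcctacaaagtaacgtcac

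The same 6 letters occurred in the promoters of 14 of 51 members (27.5%), against 8.91% of all protein-coding genes. Ears2, Eef2, Eif3a, Eif3f, Eif3k, Eif4a1, Eif4h, Eif5a, Farsb and Tars among them were lower in PA/OA cells. Eif1b, Eif4e, Eif4g1 and Iars were higher. Of all 67 members, 48 had a log2 fold change below 0. A start of C followed by 4 pyrimidines, the sign of mRNAs whose translation follows mTORC1, was found at the annotated start of Eif2s3x and Eif3f (3.92% of the 51, against 2.67% of all genes). In Eif2s3x these letters overlap those of its interferon element. Only the annotated start base was searched, so a start used elsewhere in the promoter would be missed. The number found is therefore no count of the members with such mRNAs.

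**Figure D1:**
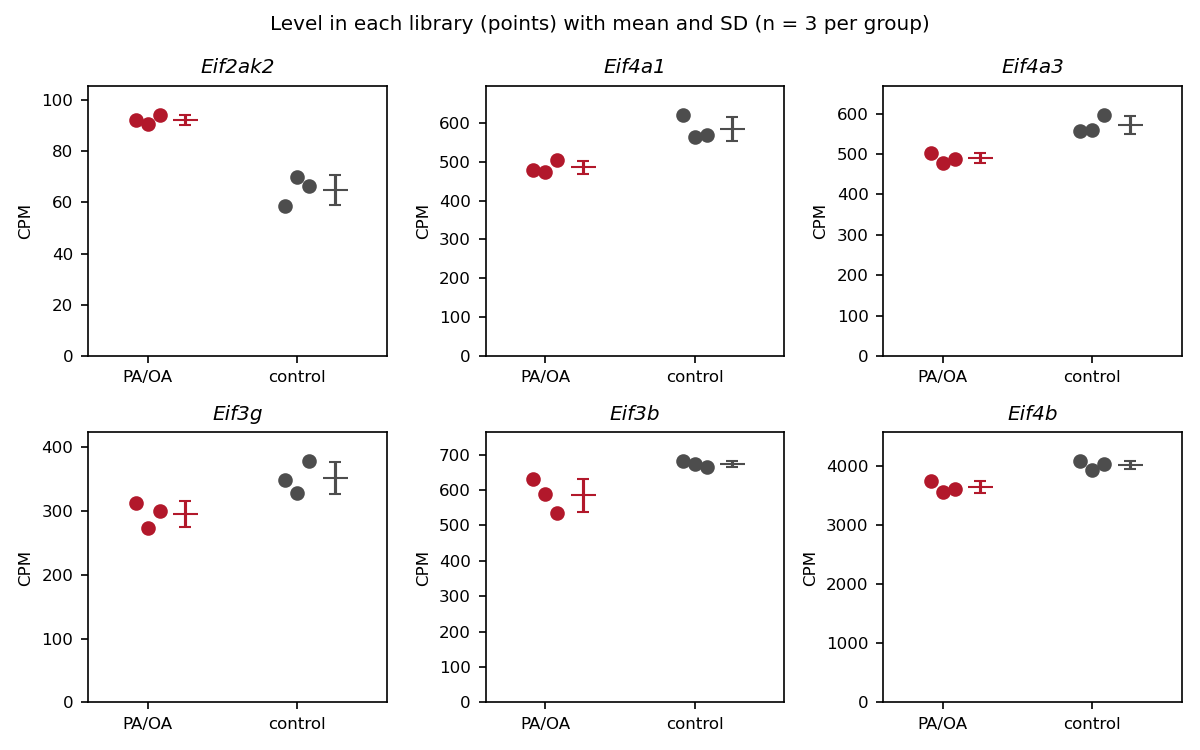
Level of 6 initiation genes in CPM in each library (points; PA/OA left, control right), with the group mean and SD beside them (n = 3 per group). Eif2ak2 lay above control in every PA/OA library and the other 5 genes lay below it, of which Eif4a1 passed the test.

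Eif4b and Eif4a3 stood just outside the threshold. Eif4b, which stimulates the helicase, had 3751, 3556 and 3618 CPM in PA/OA cells, against 4082, 3940 and 4035 CPM in control cells. No library crossed over between groups, with a log2 fold change of -0.14 ± 0.05 (edgeR adjusted p = 0.088). Eif4a3, the eIF4A relative of the exon junction complex, had 503, 479 and 489 CPM in PA/OA cells, against 558, 560 and 597 CPM in control cells. Here too the groups did not overlap, at a log2 fold change of -0.22 ± 0.06 (adjusted p = 0.051). The cap-binding protein gene Eif4e was listed by 1 predicted transcript only, with 5.10, 14.8 and 11.3 CPM in PA/OA cells and 8.07, 2.98 and 1.30 CPM in control cells. Its groups overlapped and the difference did not pass (log2 1.33 ± 0.49, adjusted p = 0.13). Eif4g1, the scaffold of the complex, was also listed by a predicted transcript alone and averaged 6.30 ± 1.35 CPM in PA/OA cells and 5.53 ± 1.22 CPM in control cells (SD, n = 3 each).

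The 4E-binding proteins, which hold eIF4E away from eIF4G, had changes of opposite sign, neither called by edgeR. Eif4ebp3 had 20.7, 21.7 and 19.6 CPM in PA/OA cells, against 12.8, 14.8 and 13.0 CPM in control cells. The groups did not overlap, with a log2 fold change of 0.61 ± 0.21 (edgeR adjusted p = 0.094; DESeq2 adjusted p = 0.030). Eif4ebp1, the more abundant one, had 291, 217 and 229 CPM in PA/OA cells, against 287, 288 and 287 CPM in control cells. PA/OA 1 stood at the control level and PA/OA 2 and 3 below it, so that the log2 fold change of -0.23 ± 0.09 (edgeR adjusted p = 0.17) became -0.37 (adjusted p = 0.0082) without PA/OA 1.

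The eIF3 scaffold had 14 listed genes, of which 0 were called by edgeR, 4 had an unadjusted p under 0.05 (19.4% of all genes did) and DESeq2 called Eif3b and Eif3g. In 12 of 14 the log2 fold change was below 0, with a median of -0.09. In 6 subunits (Eif3b, Eif3f, Eif3g, Eif3i, Eif3k and Eif3l) every PA/OA library lay below every control library, where 11.6% of all genes did so. Eif3g, a subunit that binds mRNA, had 313, 274 and 300 CPM in PA/OA cells, against 349, 328 and 378 CPM in control cells. Its groups were apart by the gap between PA/OA 1 and control 2, and the log2 fold change was -0.25 ± 0.08 (edgeR adjusted p = 0.065). Eif3b, a core subunit, had 631, 588 and 536 CPM in PA/OA cells, against 681, 674 and 666 CPM in control cells. The controls lay close together and the PA/OA libraries were spread below them, at -0.20 ± 0.07 (edgeR adjusted p = 0.091; -0.27 and adjusted p = 0.022 without PA/OA 1). Eif3a, the largest subunit, averaged 3258 ± 127 CPM in PA/OA cells and 3372 ± 91.1 CPM in control cells (log2 -0.05 ± 0.05). Eif3j1 and Eif3j2 share sequence, with 39.4% and 90.8% of their 50-base stretches in common, so their separate values are uncertain.

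Of the 5 listed genes of eIF2 and its exchange factor eIF2B, 0 were called. Eif2s1, the subunit that the stress kinases phosphorylate, had 629, 661 and 732 CPM in PA/OA cells, against 724, 788 and 771 CPM in control cells. PA/OA 3 overlapped control 1, and the log2 fold change was -0.18 ± 0.07 (edgeR adjusted p = 0.15). The beta subunit gene Eif2s2 gave -0.17 ± 0.08 and the gamma subunit gene Eif2s3x -0.01 ± 0.06, with adjusted p of 0.22 and 0.95. Eif6, which keeps the ribosomal subunits apart, averaged 944 ± 23.0 CPM in PA/OA cells and 907 ± 54.6 CPM in control cells. Eif5a, whose product eases elongation and termination, was listed by 3.91 ± 0.857 CPM in PA/OA cells and 4.55 ± 0.629 CPM in control cells.

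Of the 6 elongation genes 0 were called by edgeR, 0 had an unadjusted p under 0.05 (19.4% of all genes did) and DESeq2 called 0, although 4 of them were the most abundant members per length. Per kilobase of the listed transcript, Eef1a1, which delivers charged tRNAs, averaged 26542 CPM in PA/OA cells and 27474 CPM in control cells. Eef2, the translocase, followed at 3742 CPM per kilobase in PA/OA cells and 3848 in control cells, then Eef1g, Eef1b2 and the most abundant initiation gene, Eif4b. In CPM, Eef1a1 had 49177, 45972 and 47700 in PA/OA cells, against 48647, 48889 and 50327 in control cells. Eef2 had 12419, 11084 and 11175 CPM in PA/OA cells, against 12059, 11907 and 11697 CPM in control cells. In both genes PA/OA 1 lay among or above the controls while PA/OA 2 and 3 lay below them, and the 95% intervals of the log2 fold change ran from -0.12 to 0.02 for Eef1a1 and from -0.14 to 0.06 for Eef2. The lowest p of the class belonged to Eef1b2, an exchange factor subunit, at -0.11 ± 0.05 (edgeR adjusted p = 0.26), before Eef1e1 at -0.18 ± 0.10 (adjusted p = 0.34) and Eef1g at -0.07 ± 0.05 (adjusted p = 0.48). Together the 67 genes took 9.24%, 9.00% and 9.16% of all counts in PA/OA cells, against 9.24%, 9.26% and 9.33% in control cells, most of it from Eef1a1.

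Of the 19 synthetases 0 were called by edgeR, 3 had an unadjusted p under 0.05 (19.4% of all genes did) and DESeq2 called 0. The log2 fold change was below 0 in 16 and above 0 in 3, whereas 48% of all genes were below 0. Tars, the threonyl-tRNA synthetase, had 762, 724 and 775 CPM in PA/OA cells, against 834, 808 and 924 CPM in control cells. The groups did not overlap, at a log2 fold change of -0.18 ± 0.06 (edgeR adjusted p = 0.11). Iars, the isoleucyl-tRNA synthetase, ran the other way, with 8.65, 9.36 and 8.88 CPM in PA/OA cells against 5.85, 5.14 and 4.37 CPM in control cells. All PA/OA libraries were above all controls, and at this low level the log2 fold change of 0.81 ± 0.32 did not pass (adjusted p = 0.15). Farsb, the beta subunit of the phenylalanyl enzyme, was the lowest member, with 1.35 ± 0.760 CPM in PA/OA cells and 3.38 ± 1.30 CPM in control cells (log2 -1.32 ± 0.55, adjusted p = 0.18). Gars averaged 926 ± 19.0 CPM in PA/OA cells and 942 ± 47.7 CPM in control cells, and Mars, listed by a predicted transcript, 10.4 ± 5.53 CPM in PA/OA cells and 7.99 ± 2.48 CPM in control cells. The 6 synthetases with the mitochondrial suffix all had values below 0 (median -0.22), none called.

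Iars is shown by its first 30 bases because its promoter window holds a copy of the amino acid response element TGATGNAA, the kind of site that ATF4 and its partners bind, here on the opposite strand and in capitals (RefSeq, GRCm38.p6, chr13:49682130-49682159, plus strand, bases 1 to 30 from the start).
Iars: gtcagtaTTGCATCAcctccagacgcggaa

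On either strand, that element was in the promoters of 4 of 51 members (7.84%), against 4.13% of all protein-coding genes. The others were Eif2s3x, Gars and Tars, with log2 fold changes of -0.01, -0.03 and -0.18, none called.

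**Figure D2:**
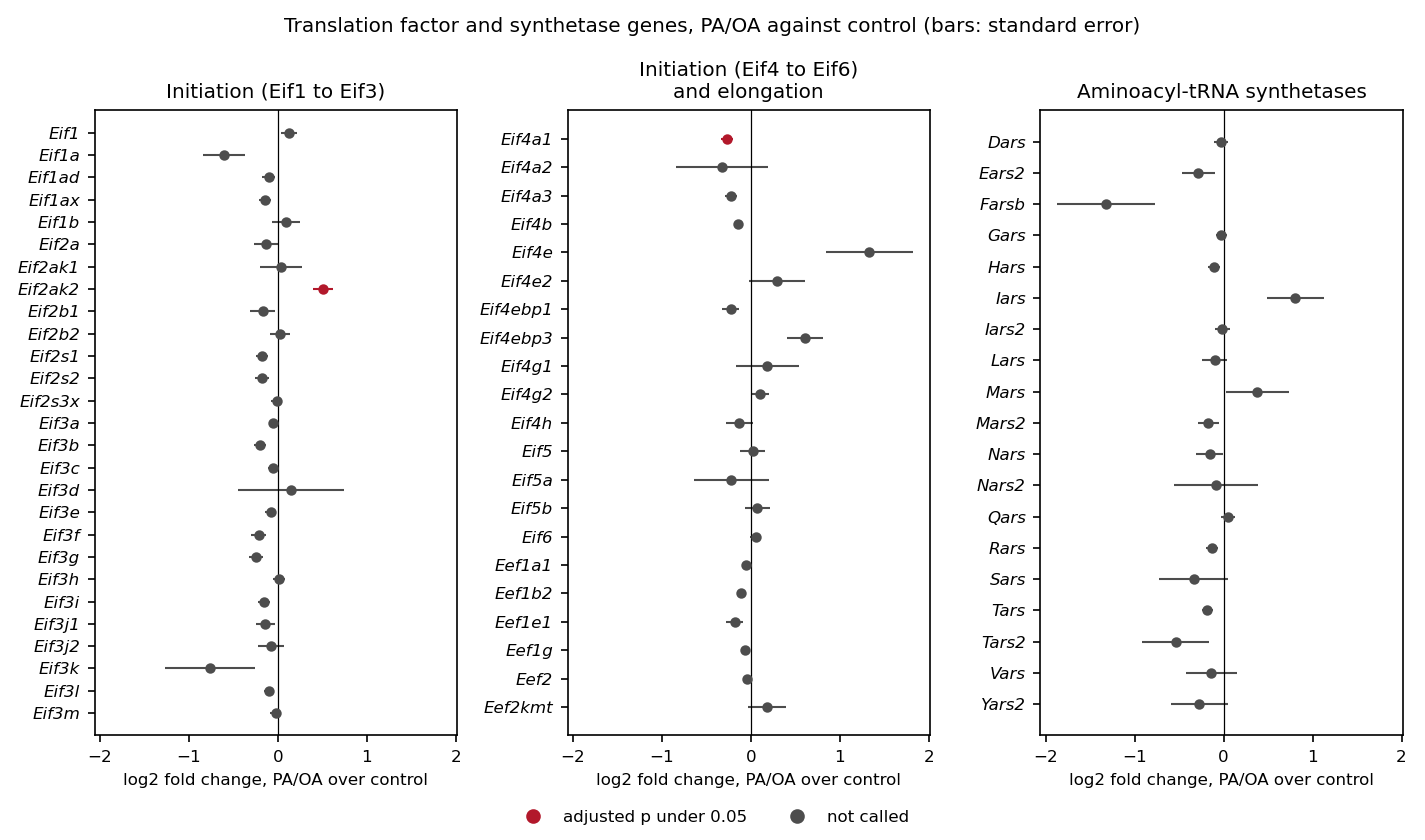
Log2 fold change of each of the 67 genes in PA/OA cells over control cells (points, bars show the standard error, n = 3 per group), in 3 panels by role, with genes called at adjusted p under 0.05 in red. Eif2ak2 at 0.51 and Eif4a1 at -0.27 are the called genes, most abundant members lie just left of 0, and the wide bars belong to genes of few counts such as Eif4e, Farsb and Iars.

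The depth behind the members limits what could be missed. For the 36 members of at least 100 CPM in both groups, the 95% interval of the fold change stayed within 1.5-fold in either direction in all 36. The 19 members under 20 CPM had wide intervals, and their levels are those of the listed transcripts alone. Groups did not overlap in 17 members, 3 higher and 14 lower in PA/OA cells (25.4%), where 23.8% of all genes were so separated. The authors' deposited table gives 23 of 68 member transcripts an unadjusted p under 0.05, 3 higher and 20 lower. Of all its 6936 transcripts 1617 had one (23.3%), a smaller share. The split by direction among all transcripts was not counted.

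The second comparison asks what Ang(1-7) changed in fatty acid-treated cells, and no member was called. By edgeR 0 of 67 members passed at an adjusted p of 0.05, 0 had an unadjusted p under 0.05, and DESeq2 called 0. Of all 9261 genes tested 0% were called by edgeR, with 2.55% at an unadjusted p under 0.05, and DESeq2 called 0.0487% of the listed genes. Without Ang(1-7) 2, edgeR again called 0 members and 0% of all genes, while 2 members (Eef2 and Eif6) and 3.58% of all genes had an unadjusted p under 0.05. The members' median log2 fold change was 0.06, and -0.01 without Ang(1-7) 2, against -0.01 and 0.01 for all genes. The groups were apart in 4 members, Eif2s3x and Eif3c higher and Eif6 and Lars lower in Ang(1-7) cells (5.97%, against 11% of all genes).

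Several genes had more transcripts listed for this pair of groups (2 in place of 1 for Eif2ak2, Eif4e, Eif4g1 and Iars), so their levels differ from those above. The genes called between PA/OA and control cells had no difference that passed here. Eif2ak2 had 89.9, 116 and 91.8 CPM in Ang(1-7) cells, against 93.0, 90.2 and 96.1 CPM in PA/OA cells (log2 0.09 ± 0.14, edgeR adjusted p = 0.97). Eif4a1 had 466, 655 and 482 CPM in Ang(1-7) cells, against 481, 471 and 505 CPM in PA/OA cells (log2 0.14 ± 0.14, edgeR adjusted p = 0.96). In both genes Ang(1-7) 1 and 3 lay within or just below the PA/OA range and Ang(1-7) 2 above it. Without Ang(1-7) 2 the log2 fold changes turned to -0.02 ± 0.10 for Eif2ak2 and -0.02 ± 0.08 for Eif4a1.

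The lowest p among initiation genes belonged to Eif6, with 876, 597 and 801 CPM in Ang(1-7) cells against 965, 947 and 920 CPM in PA/OA cells. All 3 Ang(1-7) libraries were below all PA/OA libraries, Ang(1-7) 2 farthest, at a log2 fold change of -0.32 ± 0.15 (unadjusted p = 0.056, edgeR adjusted p = 0.96). The eIF2 subunit genes came next, Eif2s2 with 651, 865 and 668 CPM in Ang(1-7) cells against 552, 582 and 652 CPM in PA/OA cells, and Eif2s3x with 625, 836 and 656 CPM in Ang(1-7) cells against 590, 581 and 624 CPM in PA/OA cells. Without Ang(1-7) 2 the log2 fold changes were -0.16 ± 0.07 for Eif6, 0.16 ± 0.08 for Eif2s2 and 0.11 ± 0.07 for Eif2s3x. Eef1g, Eef2 and Eef1b2 led the elongation genes at -0.20 ± 0.15, -0.12 ± 0.10 and -0.17 ± 0.14, and Yars2, Lars and Tars2 the synthetases at 0.89 ± 0.47, -0.24 ± 0.15 and 0.62 ± 0.44, all at an adjusted p of 0.96. With that library left out these elongation genes stood at -0.02 ± 0.06, -0.14 ± 0.06 and -0.01 ± 0.06 and these synthetases at 0.30 ± 0.35, -0.15 ± 0.12 and 0.73 ± 0.40, so that of the elongation genes Eef2 alone kept its size. Further members had log2 fold changes of 0.06 ± 0.12 (Eef1a1), 0.03 ± 0.11 (Eif2s1), 0.08 ± 0.10 (Eif3a), 0.04 ± 0.15 (Eif4ebp1) and 0.10 ± 0.12 (Gars), and without Ang(1-7) 2 of -0.06 ± 0.04, 0.0094 ± 0.08, 0.04 ± 0.07, -0.05 ± 0.12 and 0.00051 ± 0.07 in the same order. Eef1a1 and Eif4ebp1 thus changed sign with that library. The low genes Eif4e, Eif4g1, Eif5a and Mars gave -0.23 ± 0.35, -0.61 ± 0.57, -0.29 ± 0.45 and -0.31 ± 0.41 with it, and -0.11 ± 0.33, -0.13 ± 0.30, 0.09 ± 0.32 and -0.33 ± 0.39 without it.

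Ang(1-7) 2 was the highest of the 6 libraries in 31 members and the lowest in 19, 74.6% of the 67, against 65.6% of all genes. Each other library was at an extreme in 19.4% to 28.4% of the members. Chosen after their values were seen, Eif4h, a cofactor of eIF4A, had 59.5, 13.4 and 53.7 CPM in Ang(1-7) cells, and Nars, the asparaginyl-tRNA synthetase, 37.9, 10.2 and 42.2 CPM. Eif4g2, a relative of eIF4G that works without eIF4E, had 148, 349 and 160 CPM, and Eif3h 714, 1369 and 805 CPM. In each, Ang(1-7) 1 and 3 lay near each other and Ang(1-7) 2 stood outside the range of all PA/OA libraries, low in the first pair and high in the second.

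**Figure D3:**
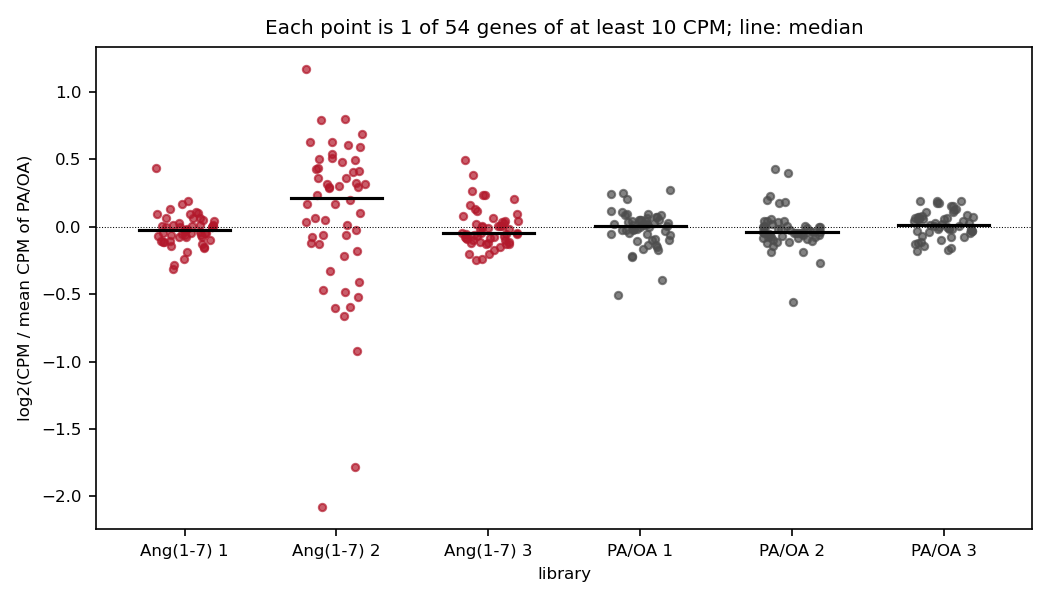
Each point is the log2 ratio of a gene's CPM in one library to its mean in the PA/OA libraries, for the 54 members of at least 10 CPM in both groups, with the median as a line (Ang(1-7) 1 to 3 left, PA/OA 1 to 3 right). Points of Ang(1-7) 2 spread widely in both directions, whereas those of Ang(1-7) 1 and 3 lie about as close to 0 as those of the PA/OA libraries.

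Transcripts of fewer counts were listed for this pair of groups than with control cells, and with them 27 further genes of the same symbol pattern appeared, such as the synthetase gene Eprs and the endoplasmic reticulum eIF2 kinase gene Eif2ak3. Of the 19 that could be tested 0 were called by edgeR. An unadjusted edgeR p under 0.05 was found for 2, 1 higher and 1 lower in Ang(1-7) cells, where 2.55% of all genes had one. Eif2ak3 had 17, 9 and 20 counts in Ang(1-7) cells, against 1, 11 and 10 in PA/OA cells. Eprs had 9, 0 and 8 counts in Ang(1-7) cells, against 18, 33 and 25 in PA/OA cells. Wars had 13, 9 and 13 counts in Ang(1-7) cells, against 6, 8 and 8 in PA/OA cells. Eef2k, the kinase that inhibits eEF2, had 4, 45 and 1 counts in Ang(1-7) cells, against 0, 3 and 2 in PA/OA cells. The last 2 genes were below the filter on low counts. At such counts no statement on these genes can be firm.

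The third comparison sets the cells given Ang(1-7) and fatty acids against control cells, the same control libraries as in the first. With all libraries, edgeR called 0 of 67 members, where 0.245% of 6134 genes were called, while 6 members had an unadjusted p under 0.05, against 14.9% of all genes. DESeq2 called 3 members, Eif2ak2 and Iars higher and Eif3g lower, and 4.22% of all genes. Groups were apart in 18 members, 4 higher and 14 lower in Ang(1-7) cells (26.9%, against 26.5% of all genes). Eif2ak2 had 89.1, 113 and 88.6 CPM in Ang(1-7) cells, against 58.2, 69.5 and 66.3 CPM in control cells. Every Ang(1-7) library was above every control, with a log2 fold change of 0.59 ± 0.15 (edgeR adjusted p = 0.16). Iars had 9.24, 11.0 and 12.8 CPM in Ang(1-7) cells, against 5.83, 5.12 and 4.35 CPM in control cells, again with no overlap (log2 1.11 ± 0.29, adjusted p = 0.17). Eif3g and Eif3b stood at -0.39 ± 0.10 and -0.31 ± 0.10 with adjusted p of 0.17 and 0.20, and at -0.41 ± 0.08 and -0.36 ± 0.07 without Ang(1-7) 2.

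In the other roles the lowest p belonged to Eef2 (-0.17 ± 0.08), Eef1b2 (-0.29 ± 0.14) and Eef1g (-0.28 ± 0.17), and to Mars2 (-0.31 ± 0.14) and Lars (-0.35 ± 0.19) after Iars, none of which passed. Leaving out Ang(1-7) 2 put them at -0.19 ± 0.04, -0.14 ± 0.05, -0.10 ± 0.05, -0.25 ± 0.13 and -0.26 ± 0.15, so that Eef1b2 and Eef1g moved by more than 1.5 times and Eef2 did not. Eef1a1, Eif2s1, Eif3a, Eif4ebp1, Eif6 and Gars had log2 fold changes of -0.0028 ± 0.11, -0.15 ± 0.09, 0.01 ± 0.09, -0.20 ± 0.11, -0.27 ± 0.15 and 0.06 ± 0.11, and without Ang(1-7) 2 of -0.12 ± 0.03, -0.18 ± 0.07, -0.02 ± 0.05, -0.29 ± 0.08, -0.12 ± 0.07 and -0.04 ± 0.06 in the same order. Eif3a and Gars changed sign with that library. The low genes Eif4e, Eif4g1, Eif5a and Mars gave 1.11 ± 0.60, -0.51 ± 0.59, -0.66 ± 0.63 and 0.05 ± 0.37 with it, and 1.26 ± 0.52, -0.07 ± 0.40, -0.20 ± 0.45 and 0.03 ± 0.37 without it.

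Without Ang(1-7) 2, edgeR called 12 of 67 members (17.9%), where 10.2% of all genes were called. Of all genes 5.22% were called higher and 4.96% lower in Ang(1-7) cells, and 48.9% had a log2 fold change below 0. Of the 67 members, 48 were below 0 and 19 above it, a larger share below 0 than among all genes. The estimated biological coefficient of variation was then 21.2%, against 30.7% with it. The 7 nervous tissue markers listed in this table summed to 129, 225 and 201 CPM in Ang(1-7) 1 to 3 and to 118 to 143 CPM in control cells, and their part in these calls was not tested. Called higher in Ang(1-7) cells were Eif2ak2 (log2 0.46 ± 0.12, adjusted p = 0.020) and Iars (1.11 ± 0.33, adjusted p = 0.041). Called lower were 10 genes: the elongation factors Eef1a1 and Eef2, the eIF3 subunits Eif3b, Eif3g, Eif3i and Eif3l, the helicases Eif4a1 and Eif4a3 with the cofactor Eif4b, and Eif4ebp1.

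Among these, Eef2 had 10410 and 10341 CPM in Ang(1-7) 1 and 3, against 12013, 11865 and 11659 CPM in control cells. Ang(1-7) 2, at 10814 CPM, was also below the controls, and without it the log2 fold change was -0.19 ± 0.04 (edgeR adjusted p = 0.0036). Eef1a1 had 45983 and 44097 CPM in Ang(1-7) 1 and 3, against 48461, 48716 and 50161 CPM in control cells. Here Ang(1-7) 2 was the highest of all at 56972 CPM, and the gene was called only without it (-0.12 ± 0.03, edgeR adjusted p = 0.016). Eif3l had 1213 and 1185 CPM in Ang(1-7) 1 and 3 and 1965 CPM in Ang(1-7) 2, against 1451, 1366 and 1359 CPM in control cells. That one library turned its log2 fold change of -0.22 ± 0.06 (edgeR adjusted p = 0.022) into 0.06 ± 0.19 (adjusted p = 0.90). Eif4a1 had 466, 639 and 478 CPM in Ang(1-7) cells, against 618, 562 and 566 CPM in control cells, and was called at -0.30 ± 0.07 (adjusted p = 0.0084) without Ang(1-7) 2. In Eif3b, Eif3g, Eif4b and Eif4ebp1 all 3 Ang(1-7) libraries were below all controls.

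**Figure D4:**
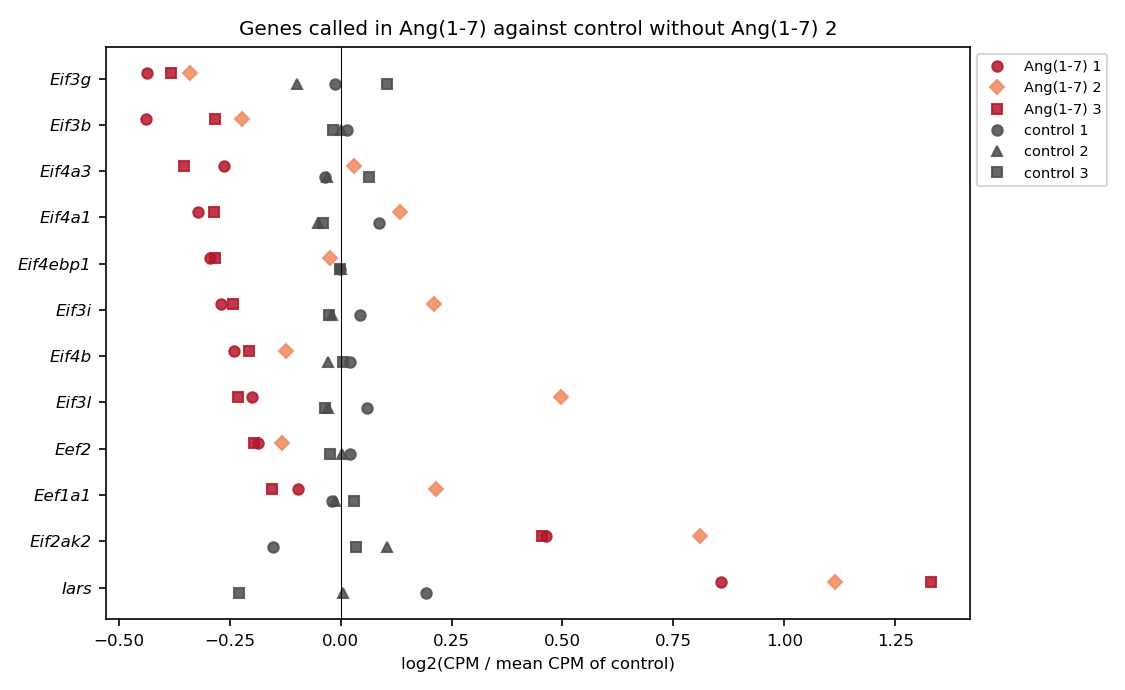
Log2 ratio of CPM in each library to the control mean for the 12 genes called in Ang(1-7) over control cells when Ang(1-7) 2 was left out, with Ang(1-7) libraries drawn above control libraries in each row. Eif2ak2 and Iars are right of all controls in the 3 Ang(1-7) libraries, and for Eif3l, Eif3i, Eef1a1, Eif4a1 and Eif4a3 Ang(1-7) 2 lies on the other side of 0 from Ang(1-7) 1 and 3.

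Genes that work with these factors were followed in 7 lists. In PA/OA against control cells, the tested members called numbered 0 of 7 for eukaryotic release and recycling, 0 of 4 for poly(A)-binding and eIF4F partners, 0 of 9 for the mTORC1 pathway, 0 of 6 for multisynthetase complex and tRNA partners, 0 of 5 for mitochondrial translation factors, 1 of 17 for ATF4 targets and 0 of 9 for MYC and ribosome biogenesis, where 5.05% of all genes were called. Their median log2 fold changes, in that order, were 0.16, 0.40, 0.05, -0.18, -0.03, 0.04 and -0.12. The called gene was Phgdh, the first enzyme of serine synthesis, which fell to 2243 ± 106 CPM in PA/OA cells, against 2542 ± 13.8 CPM in control cells (log2 -0.18 ± 0.05, edgeR adjusted p = 0.049). Its call was lost, at adjusted p of 0.12 to 0.18, when any library other than PA/OA 1 was left out. Atf4 itself averaged 49.5 ± 4.96 CPM in PA/OA cells and 64.6 ± 12.3 CPM in control cells (log2 -0.38 ± 0.14, adjusted p = 0.13).

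In both comparisons with Ang(1-7), 0 genes of the 7 lists were called with all libraries. Against PA/OA cells their medians, in the same order, were 0.16, -0.08, 0.05, -0.15, -0.06, -0.08 and -0.03, and against control cells 0.14, 0.25, 0.08, -0.21, -0.23, -0.01 and -0.16. Phgdh stood at -0.21 ± 0.10 against PA/OA cells and at -0.40 ± 0.09 against control cells (edgeR adjusted p = 0.96 and 0.13). Aimp1, a scaffold of the multisynthetase complex, was at -0.39 ± 0.09 against control cells (edgeR adjusted p = 0.14). Against PA/OA cells, 0 genes of the lists were called without Ang(1-7) 2, where the medians were 0.0022, 0.04, -0.03, -0.25, -0.02, 0.03 and -0.05. Against control cells 5 were then called by edgeR, where 10.2% of all genes were: Pabpc1, the main poly(A)-binding protein gene, higher (log2 0.56 ± 0.17, adjusted p = 0.042), and the ribosomal protein gene Rps6, Aimp1, Aimp2 and Phgdh lower (-0.19 ± 0.05, -0.37 ± 0.08, -0.71 ± 0.21 and -0.37 ± 0.06). The medians against control cells were then -0.02, 0.31, 0.02, -0.41, -0.12, 0.06 and -0.20. Comparisons that share a group of libraries are not independent of each other.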

How the data were processed

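Total RNA of 9 AML12 samples, 3 per group, was sequenced. The authors deposited a table per pair of groups with whole-number read counts per RefSeq transcript, and log2 fold changes with unadjusted p-values from a test that the file headers do not name. The submitters' processing notes name HTSeq 0.11.2, HISAT2 2.2.5 and bcl2fastq, and a human build although the transcripts are mouse. The strand setting and annotation release were not found in the sources used here, so reads of overlapping antisense genes cannot be told apart.

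Counts were summed per gene symbol. The 67 members had 68 listed transcripts in the PA/OA and control table, 59 curated and 9 predicted. Each table was fitted separately with edgeR's quasi-likelihood test after filterByExpr and TMM scaling (edgeR 4.0.16, R 4.3.3), with Benjamini-Hochberg adjustment over all genes tested and a threshold of 0.05. CPM of single genes use the same scaling, so a library's CPM differ slightly between tables. Sums of marker genes use the listed total without TMM scaling. The script was tested on simulated data. Alternatives were DESeq2 1.42.0, its size factors, no filter, curated transcripts, shared transcripts, all 9 samples, a replicate term, each replicate left out and, chosen after seeing the data, an offset for transcript length and GC content. The lists were also fitted without Ang(1-7) 2. Libraries differed from each other by more than counting noise. PCR copies cannot be told from molecules, so counting precision is an upper limit.

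The members and lists were chosen with earlier results of these data known. Named genes are the called members, the 3 of lowest p per role, a set given for every comparison (such as Eef1a1, Eif4e and Gars) and, in the lists, called genes or those of lowest p. Other names were chosen after their values were seen.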

Additional observations from a re-analysis of the deposited data

How the results depend on the processing

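In PA/OA against control, members called numbered 6 with DESeq2, 0 with all 9 samples in one fit and 7 with the length and GC offset, against 2, and 1 to 8 with a replicate left out. All genes called numbered 533 with DESeq2 and 33 with all 9 samples, against 314, and 99 to 397 with a replicate left out, lowest without control 1 and highest without PA/OA 1. In Ang(1-7) against PA/OA, members called were 0 in every fit, and all genes called were 5 with DESeq2 and 0 to 18 with a replicate left out (18 without Ang(1-7) 1). In Ang(1-7) against control, members called numbered 3 with DESeq2, 1 with all 9 samples (Eif2ak2) and 0 to 12 with a replicate left out, against 0. All genes called there numbered 259 with DESeq2, 100 with all 9 samples, 27 with curated transcripts and 4 to 624 with a replicate left out, against 15. The elongation median in Ang(1-7) against PA/OA was -0.0028 with the length and GC offset and -0.17 to 0.020 with a replicate left out, against -0.06. The initiation median in Ang(1-7) against control was 0.0071 with curated transcripts, against -0.05, and in PA/OA against control the initiation, elongation and synthetase medians were -0.10 to -0.060, -0.085 to -0.034 and -0.18 to -0.080 with a replicate left out. Eif3l in Ang(1-7) against control reversed to -0.22 without Ang(1-7) 2, and ranged up to 0.19 with another replicate left out. The cause of these shifts was not tested. The same edgeR fit was used where a replicate was left out. The replicate numbers did not pair the samples (same-number deviations correlated at -0.035 to 0.034), and with the replicate number as a block 2, 0 and 0 members and 303, 0 and 10 genes were called in the 3 comparisons. Low counts limit the 19 members under 20 CPM.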
